A study of Rattus norvegicus with 11 samples.

Results

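The Toll-like receptor genes Tlr1, Tlr2, Tlr3, Tlr4, Tlr5, Tlr6, Tlr7, Tlr8, Tlr9 and Tlr13 were examined in peripheral white blood cells (WBCs) of rats with collagen-induced arthritis (CIA) and of normal healthy controls. These are 10 of the 32623 genes in the deposited table, chosen by name and not by level. Of the 10 genes, 9 were found by symbol. Tlr13 was taken from the gene ENSRNOG00000061403, which the table lists as AABR07039446. RefSeq gives that name, with any version suffix dropped, as a synonym of Tlr13. The table has 2 rows of that name, and its own annotation places this one in Toll-like receptor 13 signalling.

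The WBCs came from male Wistar rats that were 7 weeks old by the paper's account. The 4 CIA rats, immunised with type II collagen in incomplete Freund's adjuvant (IFA-CII) and boosted on day 7, each gave a first sample around day 8, when their status was Nampt++, and a second around day 14, when it was Nampt+, with the times varying by 2 days. The 3 normal healthy controls were separate animals. Nampt++ and Nampt+ are the authors' names for high and lower expression of Nampt, an enzyme of NAD synthesis, which they measured by PCR, so status goes with the day of sampling and the effects of status, day and disease course cannot be told apart.

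Toll-like receptors recognise conserved molecules of microbes and some molecules released by damaged cells, and neutrophils, monocytes, dendritic cells and B cells carry different sets of them. Tlr1, Tlr2, Tlr4, Tlr5 and Tlr6 act mainly at the cell surface, while Tlr3, Tlr7, Tlr8, Tlr9 and Tlr13 sense nucleic acids in endosomes, where the chaperone Unc93b1 brings them. Through the adaptors Myd88 and Ticam1 they switch on NF-kappa B and interferon regulatory factors, and with these the genes of inflammatory cytokines and interferons.

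Depth was high, with 65340027 to 85819418 counts per sample, so that the number of rats rather than counting error limits the precision for all receptors but Tlr3. Low receptors in controls, such as Tlr4, are an exception, as their counting error came near their spread. Between 6.84% and 42.8% of a sample's counts fell on 11 haemoglobin genes. The marker lists for leukocytes were expressed in every sample, whereas 5 retina genes, checked because the deposited extraction protocol speaks of retinas, summed to at most 1.92 FPKM, with Crx and Nrl at 0 throughout. FPKM, the fragments of a gene scaled by the length of its transcript and by the total of the sample, is the level used below, and it allows genes to be compared with each other. In such bulk samples, fewer cells of a type and less RNA per cell cannot be told apart.

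The promoters of 4 receptors are shown first, because Tlr2 was the receptor with the highest level, Tlr7 had the largest fitted change between Nampt+ and Nampt++ samples, Tlr8 is its neighbour on chromosome X, and Tlr6 stands for the neighbouring pair Tlr6 and Tlr1. The sequences are from RefSeq (GRCr8), 5′ to 3′ on the strand of the gene, from 250 bases before to 50 bases after the start of the gene, and capitals mark the NF-kappa B consensus in Tlr2 and the PU.1 core GAGGAA, or its reverse complement, in the others. They lie at chr2:171504508-171504807 on the minus strand (Tlr2), and on the plus strand at chr14:43715559-43715858 (Tlr6), chrX:30644176-30644475 (Tlr7) and chrX:30708476-30708775 (Tlr8).
Tlr2: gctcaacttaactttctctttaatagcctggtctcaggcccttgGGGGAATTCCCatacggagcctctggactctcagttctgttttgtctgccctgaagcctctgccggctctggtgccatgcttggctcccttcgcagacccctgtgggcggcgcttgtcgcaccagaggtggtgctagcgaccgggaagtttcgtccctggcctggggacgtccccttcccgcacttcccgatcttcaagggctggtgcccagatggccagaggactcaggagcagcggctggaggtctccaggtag
Tlr6: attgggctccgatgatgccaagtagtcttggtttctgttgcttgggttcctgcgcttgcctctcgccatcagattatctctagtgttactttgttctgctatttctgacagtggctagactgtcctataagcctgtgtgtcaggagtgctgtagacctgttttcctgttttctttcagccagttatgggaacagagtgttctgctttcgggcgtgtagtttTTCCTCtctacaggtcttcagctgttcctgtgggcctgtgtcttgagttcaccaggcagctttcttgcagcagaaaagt
Tlr7: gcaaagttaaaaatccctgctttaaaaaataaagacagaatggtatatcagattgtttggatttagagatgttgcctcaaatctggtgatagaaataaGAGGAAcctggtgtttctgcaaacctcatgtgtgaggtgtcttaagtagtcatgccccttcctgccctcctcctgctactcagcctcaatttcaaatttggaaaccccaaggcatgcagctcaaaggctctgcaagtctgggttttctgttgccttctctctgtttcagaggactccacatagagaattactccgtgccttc
Tlr8: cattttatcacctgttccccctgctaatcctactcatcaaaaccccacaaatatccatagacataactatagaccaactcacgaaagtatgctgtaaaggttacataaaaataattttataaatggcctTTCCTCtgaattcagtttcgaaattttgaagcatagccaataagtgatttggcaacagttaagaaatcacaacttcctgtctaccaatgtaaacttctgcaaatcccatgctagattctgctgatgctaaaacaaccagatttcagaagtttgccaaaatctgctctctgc

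NF-kappa B carries the signal of the receptors themselves, and its consensus was found in the promoter of Tlr2 alone among the 10 genes, as overlapping matches that begin 206 bases before the start. The same consensus was in 4.18% of the 33469 promoters of this length. PU.1 is a transcription factor of myeloid and B cells. Its core GAGGAA, searched on both strands, was in 7 of the 10 receptor promoters (Tlr3, Tlr4, Tlr6, Tlr7, Tlr8, Tlr9 and Tlr13) and in 27.6% of all promoters. It began 152 bases before the start in Tlr7, 121 in Tlr8 and 29 in Tlr6. The AP-1 motif TGANTCA was found only in the promoter of Tlr9, with a share of 7.33% of all promoters, and the core of the interferon-stimulated response element in 0 of 10, with a share of 3.92%. These motifs do not overlap one another in the sequences shown, and a match of letters is not a site shown to be bound.

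Tlr2 had the highest FPKM of the 10 genes in every sample, and Tlr3 the lowest. Mean FPKM over the 11 samples was 137 for Tlr2, 46.6 for Tlr13, 14.8 for Tlr7, 11.7 for Tlr1, 4.02 for Tlr6, 3.81 for Tlr5, 2.68 for Tlr8, 1.57 for Tlr9, 0.548 for Tlr4 and 0.067 for Tlr3. The order in FPKM, which rests on the transcript lengths used, was firm at some steps and not at others. Tlr2 exceeded Tlr13, Tlr1 exceeded Tlr6, Tlr9 exceeded Tlr4 and Tlr4 exceeded Tlr3 in 11 of 11 samples. In counts, by contrast, Tlr6 exceeded Tlr1 in every sample except control 1 and those of rat 1, as in control 3 with 1272 against 900. The step from Tlr1 to Tlr6 thus rests on the transcript lengths used. Tlr6 exceeded Tlr5 in 5 of 11 samples and Tlr5 exceeded Tlr8 in 6 of 11, so these 3 neighbours did not differ beyond their spread. Tlr13 was above Tlr7 in 10 samples, Tlr7 above Tlr1 in 8 and Tlr8 above Tlr9 in 9, and the ranges of all neighbours except Tlr4 and Tlr3 overlapped.

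**Figure D1:**
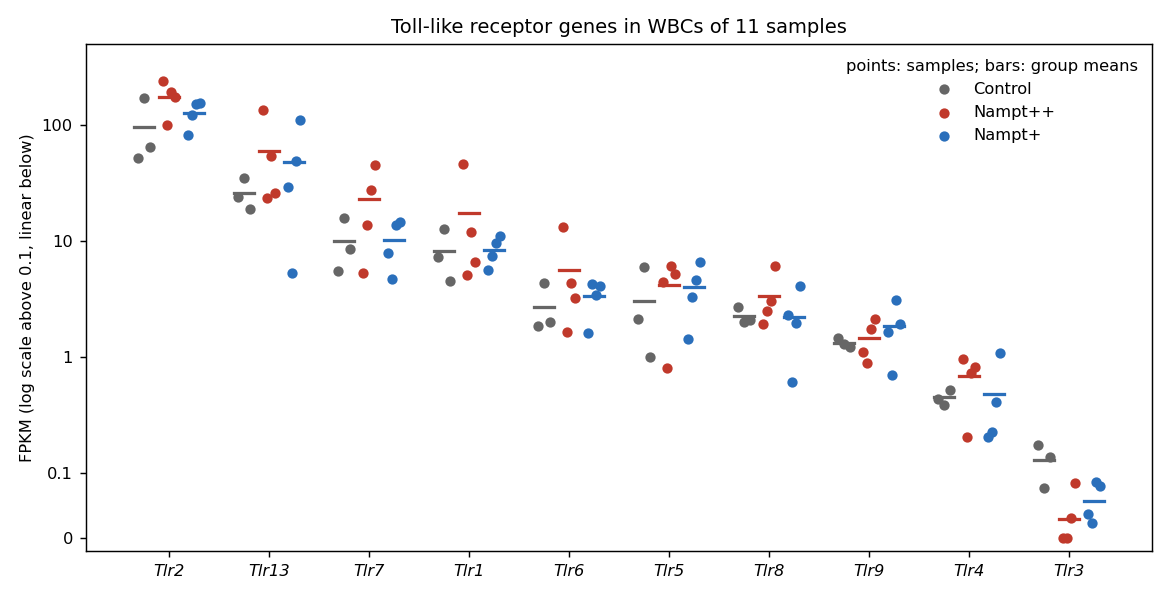
FPKM of each receptor gene in the 11 samples, on a log axis above 0.1 FPKM and a linear one below it. Points are samples, coloured by group, and bars are group means. Tlr2 lies highest, with means of 176, 128 and 96.3 FPKM in Nampt++, Nampt+ and control samples, Tlr3 lies lowest, and the points of the 3 groups overlap in every gene.

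As a share of the FPKM summed over the 10 receptors, Tlr2 made up 49.8% to 82.0% and Tlr13 3.60% to 35.9%. The 5 endosomal receptors together made up 7.73% in rat 2 and 42.7% in rat 4, both at Nampt+ status, with the other 9 samples between 21.8% and 34.8%. The extremes of this balance were thus in the same group, in different rats. Tlr4, the receptor for lipopolysaccharide, never exceeded 0.506% of the sum. The sum itself ran from 97.5 FPKM in control 1 to 448 FPKM in the Nampt++ sample of rat 1.

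Tlr2 (ENSRNOG00000009822, chromosome 2 from 182840727 to 182846061 on the minus strand, as the table lists it) recognises bacterial lipoproteins in pairs with Tlr1 or Tlr6. Its FPKM in CIA rats 1 to 4 was 239, 99.5, 191 and 174 at Nampt++ status and 82.4, 121, 153 and 154 at Nampt+ status, and it was 51.8, 173 and 64.7 in controls 1 to 3. The Nampt++ sample of rat 1 was the highest, and control 2 lay among the CIA samples while the other 2 controls lay below all of them. The groups overlapped in each comparison. The group means (± SD) were 176 ± 58.0 for 4 Nampt++ samples, 128 ± 33.7 for 4 Nampt+ samples and 96.3 ± 66.3 for 3 controls. By edgeR's quasi-likelihood test, the log2 fold change was -0.31 (standard error 0.33) from Nampt++ to Nampt+ samples, 0.65 (standard error 0.56) from controls to Nampt++ samples and 0.33 (standard error 0.59) from controls to Nampt+ samples. None passed the test, but without control 2, Tlr2 was called in both comparisons with controls, at log2 fold changes of 1.73 for Nampt++ and 1.41 for Nampt+ samples. Calls over all genes between Nampt++ samples and controls rose as well without control 2, from 77 to 462.

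Control 2 also had more RNA of phagocyte markers than the other controls. The 8 neutrophil markers, of which 7 were detected in every sample, summed to 405, 747 and 120 FPKM in controls 1 to 3, to 2025, 172, 653 and 674 in Nampt++ samples and to 208, 779, 323 and 828.7 in Nampt+ samples. Of 8 monocyte markers 7 were found, with Cd163 at 0 throughout, and their sum was 5592, 10467 and 4117 FPKM in controls, 10061, 5580, 12623 and 9458 in Nampt++ samples and 5311, 6427, 7631 and 13633 in Nampt+ samples. Most of it was Lyz2, and without Lyz2, a choice made after seeing the data, the rest summed to 84.5, 213 and 138 FPKM in controls, to 94.4, 171, 207 and 399 in Nampt++ samples and to 168, 53.3, 151 and 141 in Nampt+ samples. Neutrophil markers were thus highest in the Nampt++ sample of rat 1, while for the monocyte list rat 4 had the highest sum, at Nampt+ status with Lyz2 and at Nampt++ status without it. The part of these differences in the receptor levels was not tested.

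Tlr1 (ENSRNOG00000038722, chromosome 14 from 45062662 to 45081991) and Tlr6 (ENSRNOG00000002161, from 45024351 to 45046446) are the partners of Tlr2, for triacylated and diacylated lipoproteins, and lie 16215 bases apart on the same strand. The FPKM of Tlr1 was 46.4, 5.11, 12.0 and 6.59 in Nampt++ samples, 5.69, 7.44, 9.69 and 11.02 in Nampt+ samples, and 7.36, 12.7 and 4.504 in controls. That of Tlr6 was 13.2, 1.66, 4.40 and 3.25 in Nampt++ samples, 1.64, 4.25, 3.41 and 4.16 in Nampt+ samples, and 1.87, 4.34 and 2.00 in controls. For both genes the Nampt++ sample of rat 1 stood far above the other 10 samples, which overlapped across the groups. Without that sample, the log2 fold change from Nampt++ to Nampt+ samples went from -0.89 (standard error 0.64) to 0.17 for Tlr1 and from -0.48 (standard error 0.63) to 0.32 for Tlr6, and that of Tlr1 from controls to Nampt++ samples from 0.87 to -0.20. It is the sample with the highest sum of neutrophil markers.

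Tlr1 and Tlr6 varied together. Over the 11 samples the correlation of their log2(FPKM + 1) was 0.94 by Pearson's r and 0.88 by Spearman's rho, and r dropped to 0.82 when the Nampt++ sample of rat 1 was left out and to 0.80 when the 2 samples farthest from the median of Tlr1 were. The 11 samples include 4 rats sampled at both stages, so they are not independent, and the genes are paralogues whose shared reads may have been divided between them. FPKM of Tlr1 exceeded that of Tlr6 by 1.75 to 3.93 times in all samples (median 2.84), given the transcript lengths used. Summed as a single value, an alternative chosen after seeing the data, Tlr1 plus Tlr6 differed by -0.47 in log2(FPKM + 1) between Nampt+ and Nampt++ samples (exact permutation test, p = 0.657).

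Tlr4 (ENSRNOG00000010522, chromosome 5 from 82587420 to 82601052), the lipopolysaccharide receptor, was low, with 51 to 275 counts, a counting error of 6.03% to 14.003%. That error is small beside coefficients of variation of 48.8% among Nampt++ and 86.0% among Nampt+ samples, but not beside the 15.1% among controls. Its FPKM was 0.977, 0.207, 0.736 and 0.822 in Nampt++ samples, 0.208, 0.226, 0.410 and 1.09 in Nampt+ samples, and 0.439, 0.391 and 0.525 in controls. The controls lay within the range of both CIA groups. Tlr4 did not reach the mean FPKM of 1 needed for testing, and with no filter its log2 fold change was -0.50 (standard error 0.55) from Nampt++ to Nampt+ samples and 0.53 (standard error 0.47) from controls to Nampt++ samples, neither past the test.

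Tlr5 (ENSRNOG00000022067, chromosome 13 from 101381510 to 101385764) recognises flagellin. Its FPKM was 4.47, 0.806, 6.15 and 5.27 in Nampt++ samples, 1.43, 3.34, 4.63 and 6.68 in Nampt+ samples, and 2.13, 5.96 and 1.01 in controls. The lowest value was the Nampt++ sample of rat 2 and the highest the Nampt+ sample of rat 4, and control 2 again stood above the other controls. The log2 fold changes were 0.08 (standard error 0.58) from Nampt++ to Nampt+ samples, 0.17 (standard error 0.81) from controls to Nampt++ samples and 0.24 (standard error 0.76) from controls to Nampt+ samples, and the sign of each turned when single samples were left out.

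Among the endosomal receptors, Tlr7 (ENSRNOG00000004249, chromosome X from 28486869 to 28512957) senses single-stranded RNA and its breakdown products. It lies 26200 bases from Tlr8 (ENSRNOG00000045992, from 28539158 to 28562803), on the same strand. The FPKM of Tlr7 was 5.36, 13.9, 27.5 and 45.3 in Nampt++ samples, 7.90, 4.77, 13.8 and 14.8 in Nampt+ samples, and 5.54, 15.8 and 8.56 in controls. Of the Nampt++ samples, those of rats 3 and 4 lay above all other samples, whereas that of rat 1 was the second lowest of all 11. Tlr7 was lower at Nampt+ status in rats 2, 3 and 4 and higher in rat 1. The means (± SD) were 23.0 ± 17.4 for 4 Nampt++ samples, 10.3 ± 4.80 for 4 Nampt+ samples and 9.97 ± 5.27 for 3 controls.

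The log2 fold change of Tlr7 from Nampt++ to Nampt+ samples, -1.13 (standard error 0.53), was the largest of the receptors tested. It did not pass the test (unadjusted p = 0.061, adjusted p = 0.9996 over all genes, edgeR). Tlr7 was called by DESeq2 (-1.13) and by edgeR with no filter (-1.14), and also without the Nampt++ sample of rat 1 (-1.46). From controls to Nampt++ samples it was 1.01 (standard error 0.72), and 1.84 and called without control 2, where calls over all genes rose as well. From controls to Nampt+ samples it was -0.13 (standard error 0.45). Rat 4 at Nampt++ and rat 2 at Nampt+ status, the highest and lowest for Tlr7 in FPKM, were also the highest and lowest for the monocyte markers summed without Lyz2, but not with it, where rat 4 at Nampt+ status was highest and control 3 lowest. Haemoglobin genes took 7.80% and 42.8% of the counts of these 2 samples. Their factors in TMM, the scaling used for edgeR, were 1.20 and 0.577. FPKM does not include these factors, so rat 2 at Nampt+ status need not be lowest for Tlr7 after TMM scaling. The part of these markers was not tested.

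The FPKM of Tlr8 was 1.95, 2.49, 3.06 and 6.10 in Nampt++ samples, 2.33, 0.612, 1.98 and 4.08 in Nampt+ samples, and 2.70, 2.03 and 2.09 in controls. The sample order resembled that of Tlr7 among the CIA rats, with the Nampt++ sample of rat 4 highest and the Nampt+ sample of rat 2 lowest, and the controls lay between. The log2 fold change from Nampt++ to Nampt+ samples was -0.62 (standard error 0.42), and without the Nampt+ sample of rat 4 it was -0.99 and Tlr8 was called. From controls it was 0.49 (standard error 0.37) to Nampt++ and -0.15 (standard error 0.41) to Nampt+ samples. Tlr7 and Tlr8 correlated with r = 0.75 and rho = 0.69 over the 11 samples, and r dropped to 0.56 when the Nampt++ sample of rat 4 was left out and to 0.38 when the 2 samples farthest from the median of Tlr7 were. Their ratio was looser than that of Tlr1 to Tlr6, with Tlr7 exceeding Tlr8 by 2.05 to 8.97 times (median 5.58).

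**Figure D2:**
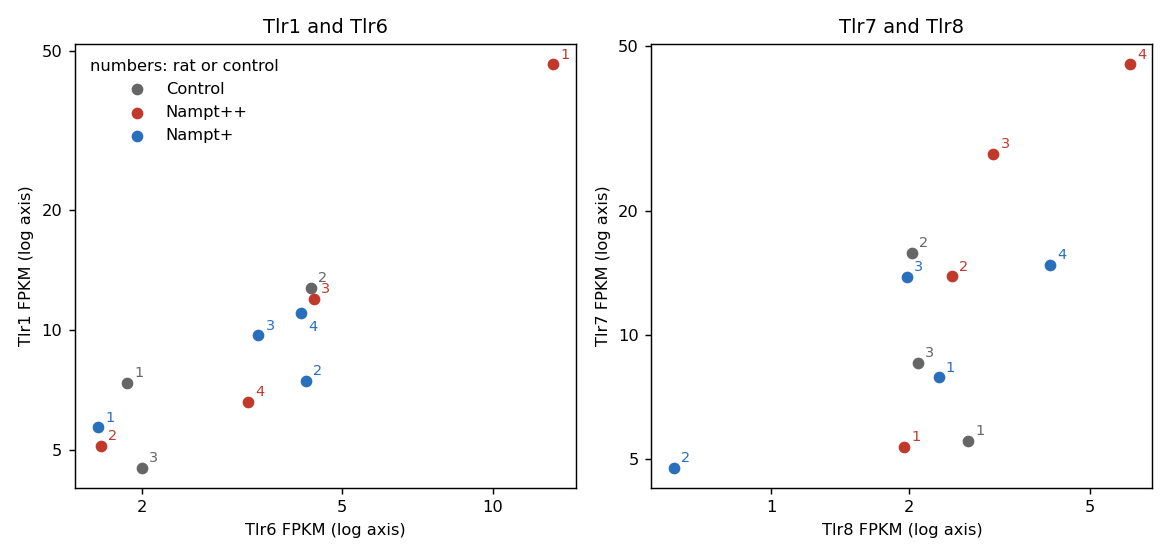
Levels of the neighbouring receptor pairs in the 11 samples, FPKM on log axes, with each point numbered by its CIA rat or control and coloured by group. Tlr1 and Tlr6 lie along a line (Pearson's r 0.94 on the log2 scale) with the Nampt++ sample of rat 1 at the top, while Tlr7 and Tlr8 scatter more (r 0.75).

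Tlr9 (ENSRNOG00000048161, chromosome 8 from 114916122 to 114920171) senses unmethylated CpG DNA. Its FPKM was 1.12, 0.888, 1.75 and 2.13 in Nampt++ samples, 1.67, 0.704, 3.10 and 1.93 in Nampt+ samples, and 1.46, 1.304 and 1.23 in controls. The controls lay close together, within the range of the CIA samples, and the Nampt+ sample of rat 3 was the highest. With Tlr5 it was 1 of the 2 tested receptors with a positive log2 fold change from Nampt++ to Nampt+ samples, 0.32 (standard error 0.32), and from controls to Nampt++ samples it stood at 0.05 (standard error 0.34), which turned to -0.0085 with upper quartile scaling.

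Tlr13 (chromosome X from 77212458 to 77234046), a receptor for bacterial ribosomal RNA in rodents, varied most of the tested receptors, with a highest value 25.4 times the lowest. Its FPKM was 135, 23.6, 54.7 and 25.9 in Nampt++ samples, 29.4, 5.33, 48.7 and 111 in Nampt+ samples, and 24.1, 35.4 and 19.0 in controls. The largest values of both CIA groups came from different rats, rat 1 at Nampt++ and rat 4 at Nampt+ status, and between the stages rat 1 went from 135 to 29.4 and rat 4 from 25.9 to 111. The log2 fold changes were -0.40 (standard error 0.74) from Nampt++ to Nampt+ samples, 1.03 (standard error 0.66) from controls to Nampt++ samples and 0.60 (standard error 0.72) from controls to Nampt+ samples. Leaving out rat 1 at Nampt++ status turned the first to 0.29, and leaving out rat 4 at Nampt+ status made it -1.18. As with Tlr1, Tlr2 and Tlr6, the highest sample was the one with the highest sum of neutrophil markers. The lowest sample for Tlr13, rat 2 at Nampt+ status with 5.33 FPKM, was however also among those with higher neutrophil sums, at 779 FPKM. The part of these markers in the level of Tlr13 was not tested.

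Tlr3 (ENSRNOG00000021726, chromosome 16 from 50016857 to 50031214), the receptor for double-stranded RNA, was at the edge of detection. It had 0, 0, 13 and 27 counts in Nampt++ samples, 12, 8, 32 and 28 in Nampt+ samples, and 59, 32 and 53 in controls. A count of 0 allows up to 3 counts, or 0.0400 and 0.0367 CPM, counts scaled to the sample's total, for rats 1 and 2 at Nampt++ status, for counting error only. All CIA samples had fewer counts than controls 1 and 3, and control 2 had the same count as the Nampt+ sample of rat 3. On log2(FPKM + 1) the groups overlapped, and neither Nampt++ nor Nampt+ samples differed from controls past the test (exact permutation tests, p = 0.0857 and 0.114). As TMM-scaled CPM, an alternative chosen after seeing the data, both CIA groups lay below the controls without overlap, with an exact permutation p = 0.0571 for Nampt++ and p = 0.0286 for Nampt+ samples, the latter the smallest p that this test can give and 1 of 30 comparisons made. By edgeR with no filter, the log2 fold changes from controls were -2.25 (standard error 1.45) for Nampt++ and -1.23 (standard error 0.70) for Nampt+ samples, and neither passed. The table also lists Tlr11, at 0 in 10 samples and 4 counts in the other, and Tlr12, at 0 in 6 samples and at most 31 counts.

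Across the family, none of the 8 tested receptors passed the thresholds in any comparison. Calling required the mean FPKMs to differ by a ratio above 2 or below 0.5, together with an unadjusted p below 0.05 from edgeR's quasi-likelihood test. Of all genes tested, 0.642% were called between Nampt+ and Nampt++ samples, 0.686% between Nampt++ samples and controls and 0.497% between Nampt+ samples and controls, so a count of 0 among 8 receptors is near the background. Genes called higher were 0.312%, 0.33% and 0.213% of those tested in the same order. No receptor had an unadjusted p under 0.05 in edgeR in any comparison, against 2.28%, 1.57% and 0.87% of all genes. By DESeq2 it was 1 receptor, Tlr7 between Nampt+ and Nampt++ samples, and by limma on log2(FPKM + 1) it was 1, Tlr2 between Nampt++ samples and controls (difference 1.0007), and neither had an adjusted p under 0.05. The exact permutation tests of single genes on log2(FPKM + 1) gave 0 of 30 results under 0.05, where the smallest p they can give is 0.0286. The FPKM of no receptor was without overlap between groups, against 0.41%, 1.1% and 0.444% of all genes.

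By fold alone, 2 of the 8 tested receptors, Tlr7 (ratio 0.449) and Tlr1 (ratio 0.483), were past the threshold between Nampt+ and Nampt++ samples, against 2.57% of all genes. Between Nampt++ samples and controls these were 4, namely Tlr7 (2.31), Tlr13 (2.29), Tlr1 (2.14) and Tlr6 (2.06), against 4.09% of all genes, and between Nampt+ samples and controls 0, against 2.06%. Without the Nampt++ sample of rat 1, only Tlr7 remained past the threshold in the first 2 comparisons. With FPKM scaled to the same upper quartile, or with haemoglobin genes left out, the count was also 1, Tlr7, in both of them. Without control 2 it was 6 for Nampt++ samples and 3 for Nampt+ samples against controls, and without the Nampt+ sample of rat 4 or of rat 2 it was 4 or 0 between Nampt+ and Nampt++ samples. The median log2 fold change of the 8 receptors was -0.44 between Nampt+ and Nampt++ samples, where 6 of 8 and 50.0% of all genes were below 0. It was 0.74 from controls to Nampt++ samples, where 0 of 8 and 49.6% of all genes were below 0, and 0.29 from controls to Nampt+ samples, where 3 of 8 and 50.7% of all genes were below 0. Single samples moved these medians. Leaving out rat 1 at Nampt++ status turned the first median to 0.13 with 3 of 8 below 0, and lowered the second to 0.25 with 1 of 8 below 0. Without control 2 the second was 1.58 and the third 0.92, and without control 3 they were 0.40 and -0.12. Leaving out Nampt+ samples gave a first median of -0.71 for rat 4 and -0.23 for rat 1, while the third was 0.04 for rat 2, -0.0048 for rat 4 and 0.47 for rat 1. Without control 1 the third was -0.01. The median of all genes was 0.00 in each comparison. The comparisons share samples with each other, and the receptors share samples and correlate among themselves, so these counts are no tally of independent genes.

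**Figure D3:**
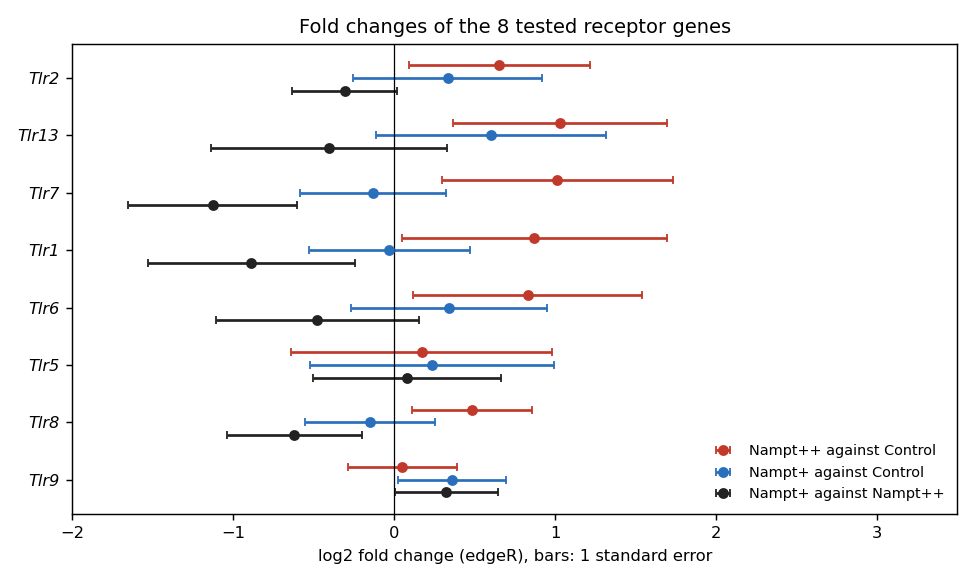
Log2 fold changes of the 8 tested receptor genes from edgeR in the 3 comparisons, with bars of 1 standard error. From controls to Nampt++ samples all 8 values lie above 0, from 0.05 for Tlr9, which turned to -0.0085 with upper quartile scaling, to 1.03 for Tlr13, and none of the 24 values passed the test.

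Within the CIA rats, Tlr2, Tlr7, Tlr8 and Tlr13 were lower at Nampt+ than at Nampt++ status in 3 of 4 rats, 5 receptors were lower in 2 rats and Tlr3 in 1. No receptor was lower in all 4. For Tlr7 and Tlr8 the exception was rat 1, for Tlr2 rat 2 and for Tlr13 rat 4. By rat, 6, 4, 8 and 5 of the 10 receptors were lower at Nampt+ status in rats 1 to 4, so rat 3 was the most uniform. In rat 1, the surface receptors Tlr1, Tlr2, Tlr4, Tlr5 and Tlr6 and the endosomal Tlr13 were lower at Nampt+ status while Tlr3, Tlr7, Tlr8 and Tlr9 were higher, and in rat 2 the endosomal Tlr7, Tlr8, Tlr9 and Tlr13 were lower while the other 6 were higher. All these directions are in FPKM, without TMM scaling. For rat 2 the TMM factor was 0.873 at Nampt++ and 0.577 at Nampt+ status. Its small drop in Tlr9, from 0.888 to 0.704 FPKM, therefore need not hold after such scaling. Sign-flip permutation of the 4 differences gave p from 0.25 to 1.0 (exact permutation tests), where 0.125 is the smallest p that 4 rats allow.

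**Figure D4:**
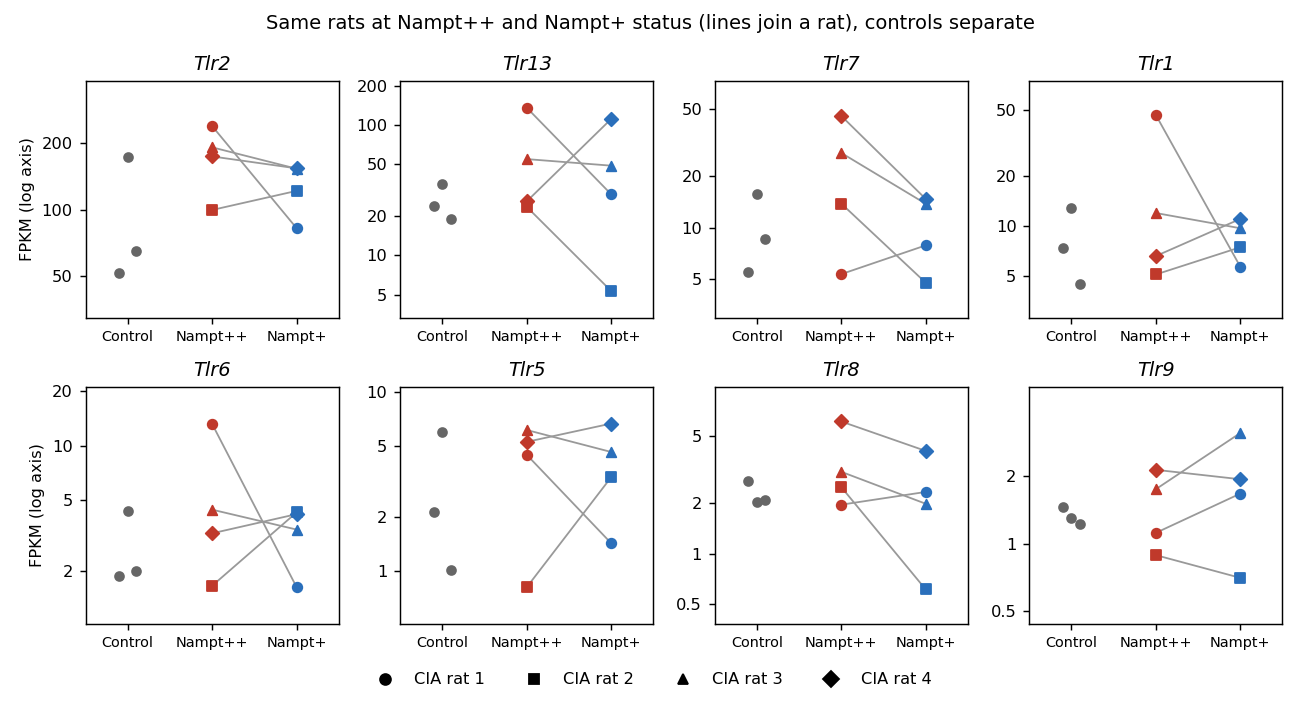
FPKM of the 8 tested receptor genes on log axes by group. Lines join the Nampt++ and Nampt+ samples of a CIA rat, marked by symbol, and controls are separate points. The lines do not all point the same way in any gene, as for Tlr13, where rat 1 goes from 135 to 29.4 FPKM and rat 4 from 25.9 to 111.

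For each receptor with a mean FPKM of at least 10, the 3 genes with the most similar level over the 11 samples were sought among the 4930 genes that reached this mean, by Pearson's r of log2(FPKM + 1). These values describe 11 samples from 7 rats that differ in haemoglobin share and cell makeup, and high values arise by choice of the best among many. For Tlr2 they were the phosphatase Dusp16, the lipid droplet protein Plin2 and the oxygen sensor Egln1 (r = 0.95 each). For Tlr13 they were Rflnb (0.96), the adiponectin receptor Adipor2 (0.94) and the scaffold protein Iqgap1 (0.91). For Tlr7 they were Rassf4 (0.96), the small GTPase Rhoq (0.94) and the adenosine receptor Adora2a (0.93), and for Tlr1 the telomere protein Tinf2, the endothelin-converting enzyme Ece1 and the immunoproteasome subunit Psmb9 (0.97 each).

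The genes that serve the receptors were counted in 5 lists, of which 63 of 66 symbols were found. Called genes were few, 1 of 59 tested between Nampt+ and Nampt++ samples, 1 of 58 between Nampt++ samples and controls and 1 of 59 between Nampt+ samples and controls, all lower in the first group named. Without control 2, however, 8 were called higher and 1 lower in Nampt++ samples than in controls, the 8 being Ccl3, Cd14, Ctsb, Icam1, Il10, Il1a, Irak2 and Lbp. Leaving out the other controls gave only lower calls in this comparison. These were 2 without control 1, Hmgb1 and Il6, and 2 without control 3, Cxcl2 and Ptgs2, with 0 higher each time. Leaving out control 2 also raised the count of all genes called in this comparison from 77, of 11219 tested with all samples, to 462. The rise was thus not confined to these lists, and whether it was larger in them was not tested. The cytokine Tnf was called higher in Nampt++ samples than in controls by DESeq2, by limma, with no filter, with all groups in one fit and without the Nampt++ sample of rat 3. Apart from Il1a and Hmgb1, these genes were singled out after their values were seen. Of all genes, 0.33%, 0.357% and 0.284% were called lower in these comparisons. None had an adjusted p under 0.05 by edgeR's quasi-likelihood test, and 3, 1 and 1 had an unadjusted p under 0.05. The genes called with all samples, Il1a and Hmgb1, averaged 5.57 and 4.48 FPKM over the 11 samples. Both lie below the FPKM of 10 under which the study deemed differences unreliable.

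Co-receptors and processing factors stood below 0 in 12 of 12 log2 fold changes between Nampt+ and Nampt++ samples (median -0.35), with none called, and with each sample left out in turn 10 to 12 were below 0 (medians from -0.51 to -0.27). Ctsb, an endosomal protease, had 549 ± 242 FPKM in Nampt+ and 747 ± 188 FPKM in Nampt++ samples (SD, n = 4). Its log2 fold change between them was -0.09 (standard error 0.50). Cd14, the co-receptor that hands lipopolysaccharide to Tlr4, had 73.2 ± 16.7 and 134 ± 83.1 FPKM (SD, n = 4), and 77.7 ± 60.8 FPKM in controls (SD, n = 3). Between Nampt+ and Nampt++ samples its log2 fold change was -0.76 (standard error 0.34). In FPKM, Cd14 was thus far above Tlr4 itself. From controls to Nampt++ samples the list had 1 of 12 values below 0 (median 0.40, from 0.19 without control 1 to 0.63 without control 2), and from controls to Nampt+ samples 7 of 12 (median -0.04, and 0.13 without control 2).

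For adaptors, kinases and IRFs, values between Nampt+ and Nampt++ samples were balanced, with 10 of 19 log2 fold changes below 0 and a median of 0.00. With each sample left out in turn, 9 to 13 were below 0. The medians ran from -0.20, with rat 2 left out at Nampt++ status, to 0.02. Irf7 and Irf3, the transcription factors of the interferon branch, had log2 fold changes of -0.06 (standard error 0.38) and 0.24 (standard error 0.25). Against controls, 8 of 19 were below 0 for Nampt++ samples (median 0.14) and 6 of 19 for Nampt+ samples (median 0.08). Without control 3 these medians were 0.00 and -0.05. Of the inhibitors, 7 of 8 were below 0 between Nampt+ and Nampt++ samples (median -0.27), with Nfkbia, which holds NF-kappa B in the cytoplasm, at -0.43 (standard error 0.60) and the ubiquitin-editing enzyme Tnfaip3 at -0.29 (standard error 0.34). Against controls it was 1 of 7 for Nampt++ samples (median 0.24) and 5 of 8 for Nampt+ samples (median -0.06). Without control 2 these medians were 0.68 and 0.47, and without control 3 they were 0.01 and -0.22.

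Target genes of the pathway were below 0 in 16 of 17 log2 fold changes between Nampt+ and Nampt++ samples (median -0.43), and 13 to 15 were with each sample left out in turn (medians from -0.70, with rat 2 left out at Nampt+ status, to -0.21, with rat 3 left out at Nampt++ status). The called gene was the cytokine Il1a, at -1.22 (standard error 0.24, unadjusted p = 0.00073, adjusted p = 0.9996 over all genes, edgeR). It stayed called with each sample left out in turn, from -1.37 to -1.13. Il1b and Ccl3 had the highest levels of the list, and their log2 fold changes of -0.38 (standard error 0.65) and -0.43 (standard error 0.63) did not pass the test. Against controls, 6 of 17 were below 0 for Nampt++ samples (median 0.27) and 13 of 17 for Nampt+ samples (median -0.18). Without control 2 these medians were 1.06 and 0.47, and without control 3 they were -0.12 and -0.61.

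Of the endogenous ligands, S100a8 and S100a9, calcium-binding proteins abundant in neutrophils and monocytes, had log2 fold changes of -0.45 (standard error 0.86) and -0.37 (standard error 0.83) between Nampt+ and Nampt++ samples. The median of the 3 ligands, also -0.37, turned to 0.49 with rat 1 left out at Nampt++ status. Hmgb1, a chromatin protein released by damaged cells, was at 3.11, 3.20, 2.65 and 4.12 FPKM in Nampt++ samples, 4.46, 1.70, 3.08 and 3.28 in Nampt+ samples, and 5.05, 2.398 and 16.2 in controls. Control 3 stood far above all other samples. Hmgb1, whose reads may be divided with near-identical copies elsewhere in the genome, was called lower than in controls in Nampt++ samples (-1.12, standard error 0.44) and in Nampt+ samples (-1.16, standard error 0.46), in groups that overlapped. Without control 3 the values were -0.35 and -0.38 and Hmgb1 was not called, nor was it by limma, with a replicate block, or without any 1 of the Nampt++ samples or of the Nampt+ samples of rats 2, 3 and 4.

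**Figure D5:**
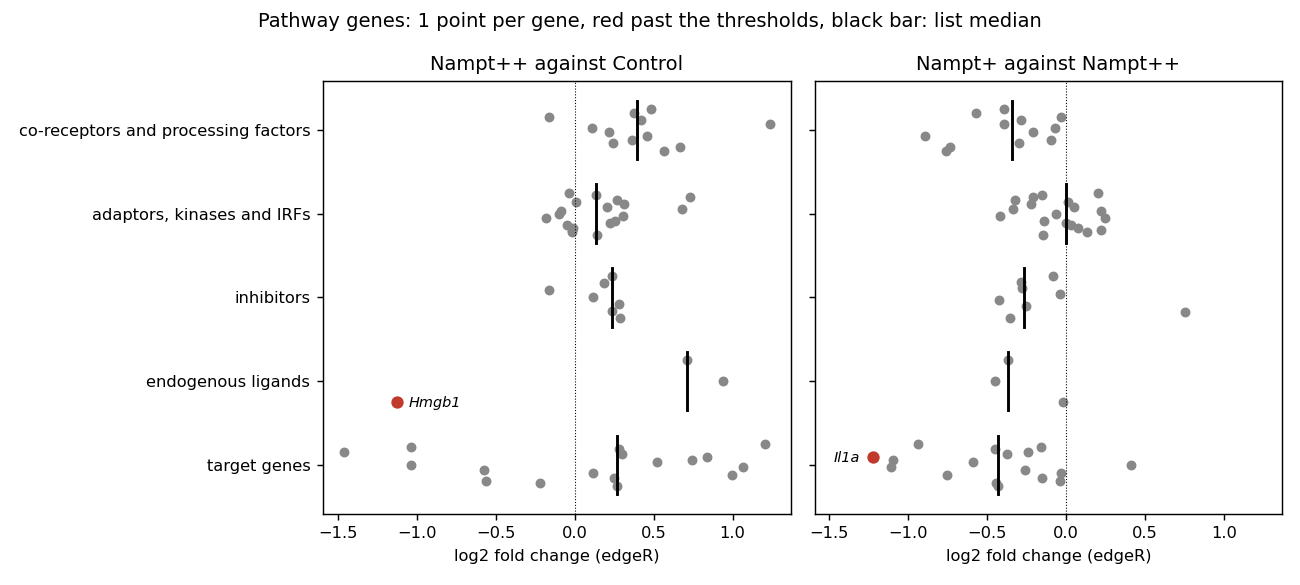
Log2 fold changes from edgeR of the pathway genes from controls to Nampt++ samples and from Nampt++ to Nampt+ samples, with 1 point per gene, a black bar at the median of each list, and red points past the thresholds. Medians between Nampt+ and Nampt++ samples were -0.35 for co-receptors and processing factors, 0.00 for adaptors, kinases and IRFs, and -0.43 for target genes, and the red points are Il1a and Hmgb1.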

How the data were processed

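RNA of peripheral WBCs was sequenced in 11 samples. The labels and methods name Cutadapt 1.9, HISAT2 2.0.4, StringTie 1.3.4d and Gffcompare 0.9.8, and the genome build and the counting of reads shared by paralogues are not given in the sources used here. The authors deposited unnormalized counts of reads per gene. The authors deposited FPKM values beside them, in which 0.0001 stands for 0.

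Genes were tested if their FPKM averaged 1 or more across both groups, using their counts in edgeR 4.0.16 (R 4.3.3), TMM scaling and the quasi-likelihood test, which was checked on simulated data, and adjusted by the Benjamini-Hochberg method. Calls used the study's thresholds, a mean FPKM ratio above 2 or below 0.5 with unadjusted p below 0.05. For single receptors, an exact permutation test (two-sided) of log2(FPKM + 1) was used, with a pseudocount of 1. A fold on that scale understates the change of low genes. The floors of Tlr3 and the counting errors of Tlr4 leave out variation between rats. Standard errors come from the quasi-likelihood fit and include variation between samples.

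The receptors, lists, motifs and tests were chosen with earlier results of these data known. All 10 receptors are named. Pathway genes are named where called, and otherwise by the highest mean FPKM, 2 per list. Ly96, Cd36 and Ticam1, and the markers Ccr2, Cd79a and Mcpt8, had no match by symbol and are not analysed here, nor is Tlr10.

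Nampt++ and Nampt+ samples of the same number come from the same rat by the labels, so p-values that treat them as separate samples ignore this pairing, and the rat entered as a replicate block in an alternative. Deviations of the pairs from their group means correlated with -0.27, -0.24, 0.23 and 0.09 over genes. Controls and CIA rats share only numbers. Alternatives were upper quartile scaling, DESeq2 1.42.0, no filter or a mean FPKM minimum of 10, haemoglobin genes left out, limma 3.58.1, all groups in one fit, the fitted fold, a pseudocount of 0.1, the block, and each sample left out. Columns of the table that annotate genes were used to identify Tlr13 and the haemoglobin genes and to give the positions of the receptors.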

Additional observations from a re-analysis of the deposited data

Results flagged for a closer look

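The FPKM of Tlr1 in the Nampt++ sample of rat 1, 46.4, lay far from the other 3 samples of its group, with a gap to the nearest of them of 0.834 of the group's whole range, against a critical value of 0.829 for 4 samples. It was the only such value in 20 groups of 4 samples examined over the 10 receptors, and about 1 in 20 such groups would be marked by chance.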

How the results depend on the processing

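Of 379 values of single receptors under the alternatives, 342 kept their direction and their side of the threshold, 7 newly passed and 30 turned direction. The count of 0 called receptors became 1 between Nampt+ and Nampt++ samples with DESeq2 or no filter (Tlr7 each time), and with 1 sample left out it was 0 to 1 there, 0 to 2 between Nampt++ samples and controls and 0 to 1 between Nampt+ samples and controls. Every newly passing receptor is named in the report. The count of 0 from permutation tests became 1 with TMM-scaled CPM.

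Of pathway genes called, 1 in each comparison, DESeq2 gave 2 in each, and a mean FPKM of at least 10 gave 0 in each. Between Nampt++ samples and controls no filter gave 2 and all groups in one fit 2, and between Nampt+ samples and controls limma gave 0. With a sample left out the counts ran from 1 to 4, from 0 to 9 and from 0 to 2, with the 9 (8 higher, 1 lower) without control 2 and the 4 without the Nampt++ sample of rat 1. The cause was not tested.

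With the rat as replicate block, 0 receptors and 1 pathway gene were called between Nampt+ and Nampt++ samples, and 56 genes in all. With numbers as a replicate block, though controls and CIA rats share only numbers, pathway genes called were 0 for Nampt++ and 0 for Nampt+ samples against controls, and the log2 fold change of Tlr9 was -0.12 for Nampt++ samples, and those of Tlr1 and Tlr13 were 0.12 and -0.16 for Nampt+ samples. The block changed no call of a receptor. Other values that turned were Tlr9 for Nampt++ samples with upper quartile scaling (-0.0085) and Tlr1 (0.10) and Tlr7 (0.043) for Nampt+ samples with limma.

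With 1 sample left out, log2 fold changes between Nampt+ and Nampt++ samples ran from -1.22 to 0.17 for Tlr1, -0.25 to 0.38 for Tlr5, -1.0003 to 0.32 for Tlr6 and -1.18 to 0.29 for Tlr13. Those from controls to Nampt++ samples ran from -0.20 to 1.61 for Tlr1, -0.30 to 1.44 for Tlr5 and -0.15 to 0.22 for Tlr9. Those from controls to Nampt+ samples ran from -0.41 to 0.71 for Tlr1, -0.0025 to 1.41 for Tlr2, -0.23 to 1.51 for Tlr5, -0.19 to 1.14 for Tlr6, -0.45 to 0.70 for Tlr7, -0.51 to 0.067 for Tlr8 and -0.12 to 1.14 for Tlr13.

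Counts of all genes called, 72, 77 and 56, became 295, 306 and 261 with no filter and 19, 25 and 14 at a mean FPKM of at least 10, where fewer genes are tested. Between Nampt++ samples and controls DESeq2 gave 121 and the replicate block 46. With a sample left out they ran from 58 to 165, from 53 to 462 (462 without control 2) and from 49 to 136. Depth limits Tlr3, and the number of rats the other receptors, apart from low receptors such as Tlr4 in controls.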
